A study of Mus musculus with 8 samples.

Results

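Messenger RNA levels of 10 genes of the bone morphogenetic protein (BMP) pathway were examined in mouse embryonic stem cells (ESCs) with and without Dax1, an orphan nuclear receptor encoded by Nr0b1. The genes were taken by name for their place in the pathway, with earlier results of these data known. They are the inhibitor-of-differentiation genes Id1, Id2, Id3 and Id4, the inhibitory Smads Smad6 and Smad7, the decoy receptor gene Bambi, and the ligand genes Bmp4, Bmp6 and Bmp7. They make up 10 of the 52550 genes listed for each library, and all 10 passed the filter on low counts that left 20749 genes tested. The 4 groups crossed genotype (control or Dax1KO ESCs) with medium (2i/LIF or LIF/serum), all at passage 3, with 2 RNA-seq libraries a group. Dax1KO cells were derived by lentiviral CRISPR/Cas9 with a guide near the Dax1 start codon and zeocin selection in 2i/LIF. The knockout line used was 1 picked colony, so genotype and clone cannot be told apart, and the study calls the controls wild-type ESCs. The Dax1KO cells in LIF/serum were moved there from 2i/LIF. The study describes differentiation and heavy cell death after this move, and no continued passaging. How long the control cells had been in LIF/serum is not given in the sources used here. In LIF/serum, and so in the difference between media, genotype cannot be told apart from this move or from cell death. All groups were on gelatin with LIF at 10 ng/ml. The 2i/LIF medium was serum-free N2B27 with the MEK inhibitor PD0325901 (1 µM) and the GSK3 inhibitor CHIR99021 (3 µM), and the LIF/serum medium held 15% fetal bovine serum. The strain and sex of the cells are not given in the labels. Nothing states that the 2 libraries of a group came from separate cultures, so P values measure the spread between these libraries, which may be technical.

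Library totals lay between 35911384 and 37286251 counts. Values below are normalized counts, that is read counts scaled to a common library size, with mean ± SD (n = 2) unless a value per library is given. Dax1 itself was counted 456 and 300 times in control libraries in 2i/LIF and not at all in the Dax1KO libraries (at least 129-fold lower, against a floor of 3 counts per library, adjusted P = 0.00329). In LIF/serum Dax1 was counted 5095 and 4689 times in control and 14 and 6 times in Dax1KO libraries (log2 fold change -9.06, SE 0.38, adjusted P = 0.000395). All 8 markers of pluripotent cells were counted in every group, with summed levels of 179600 to 195800 (control) and 165500 to 173900 (Dax1KO) in 2i/LIF and of 183200 to 207800 and 198400 to 214900 in LIF/serum, and none of the 8 passed the test of Dax1KO against control in either medium. The 1054 tested genes of chromosome 6 were shifted in Dax1KO cells, their median log2 fold change being 0.44 (2i/LIF) and 0.52 (LIF/serum), beside -0.01 and 0.01 over all genes. None of the 10 genes lies on chromosome 6, and the part of this shift in their values was not tested. Because these were bulk cultures, fewer cells of a type and less RNA per cell cannot be told apart.

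BMP ligands bind pairs of serine/threonine kinase receptors, which phosphorylate Smad1, Smad5 and Smad9; these enter the nucleus with Smad4 and switch on target genes, of which the Id genes are the best known. Id proteins are helix-loop-helix proteins without a DNA-binding region that tie up E proteins and so block differentiation programs. Smad6, Smad7 and Bambi are targets of the pathway that damp it, Smad7 also answering to TGFβ signals. In mouse ESCs kept with LIF, serum or BMP supports self-renewal through Id genes, whereas the inhibitors of 2i make serum dispensable.

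Smad1, Smad5 and Smad4 bind GC-rich BMP-responsive elements in promoters of Id genes, which is why the promoters were searched. RefSeq windows of 300 bases (GRCm38.p6), from 250 before to 50 after the start, were matched for 6 of the 10 genes, namely Id2, Id3, Id4, Smad6, Bmp4 and Bmp6. The letters GGCGCC, their own reverse complement, were found in the windows of Id2 (beginning 231 bases before the start) and Id4 (148 bases before it), and in 11.9% of all 32851 RefSeq windows of that length. The stretches around these matches that lie outside annotated exons are printed 5′ to 3′ with GGCGCC in capitals. The Id2 stretch, chr12:25096254-25096342 on the minus strand, is intronic in the longest Id2 transcript of GENCODE M21 and upstream of the others; the Id4 stretch, chr13:48260866-48261115 on the plus strand, is upstream of the gene.
Id2: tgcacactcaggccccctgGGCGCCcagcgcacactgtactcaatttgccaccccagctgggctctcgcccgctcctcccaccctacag
Id4: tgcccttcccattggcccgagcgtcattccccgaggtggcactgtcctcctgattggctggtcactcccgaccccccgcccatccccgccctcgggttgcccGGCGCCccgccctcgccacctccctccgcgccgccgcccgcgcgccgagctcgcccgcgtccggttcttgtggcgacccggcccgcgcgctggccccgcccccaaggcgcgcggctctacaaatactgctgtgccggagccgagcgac
CAGAC or its reverse complement GTCTG, the letters of the Smad-binding element core, was present at 2 places in the Id3 window (167 and 68 bases before the start) and at 1 in the Bmp6 window (119 bases before it), against 49.6% of all windows with at least 1. The Id3 and Bmp6 windows lie inside the GENCODE M21 spans of these genes, so their CAGAC matches are downstream of the annotated gene starts. Neither motif was found in the Smad6 or Bmp4 windows. Id2 and Id4, the genes with GGCGCC, had opposite differences between media in control cells, as the values below show. Any bearing of either motif on the levels was not tested.

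Loss of Dax1 was accompanied by opposite changes of Id1 in the 2 media, a rise in 2i/LIF and a fall in LIF/serum. Id2 also fell in LIF/serum, while Bmp6 and Bmp7 rose there. A gene is called changed where its fold change is 1.2 or more and its adjusted P is no higher than 0.05 (edgeR quasi-likelihood test, Benjamini-Hochberg over all 20749 genes). In 2i/LIF 1 of the 10 genes was called, against 3.16% of all tested genes (1.51% higher and 1.65% lower). In LIF/serum 4 were called, 2 higher and 2 lower, against 14.7% of all genes (8.87% higher and 5.78% lower). The effect of Dax1KO differed between the media, by an interaction test with the same limit on adjusted P and none on fold, for 2 of the 10, against 2.87% of all genes (2.05% with the larger log2 fold change in LIF/serum and 0.824% with the smaller). The median log2 fold change over the 10 genes was -0.05 in 2i/LIF and -0.10 in LIF/serum, beside -0.01 and 0.01 over all genes. The members moved in opposing directions, so they are described singly. With no filter on low counts the calls of Id1 in 2i/LIF (1.41, adjusted P = 0.0513), of Id1 (-0.82, adjusted P = 0.0506), Id2 (-1.43, adjusted P = 0.0546) and Bmp6 (1.21, adjusted P = 0.0753) in LIF/serum, and of the difference for Bmp7 (2.26, adjusted P = 0.0954) missed the threshold.

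**Figure D1:**
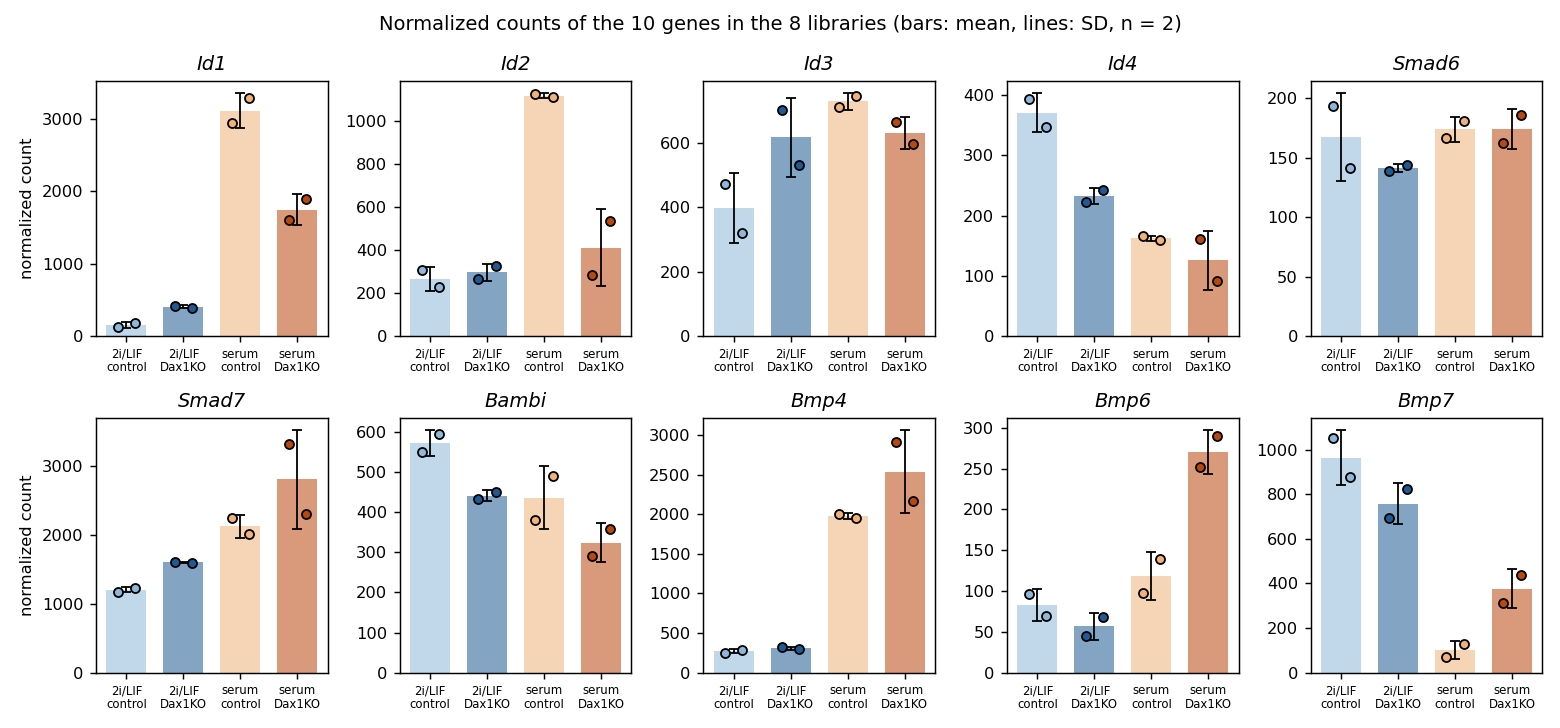
Normalized counts of each of the 10 genes (vertical axes, separate scale for each gene) in the 8 libraries, by group. Each point is 1 library; Id1 and Bmp4 were high in LIF/serum, Bmp7 was high in 2i/LIF, and Id1 rose with Dax1KO in 2i/LIF but fell in LIF/serum.

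Id1 (ENSMUSG00000042745.9, chr2:152736251-152737410, plus strand, GRCm38) encodes the Id protein most studied downstream of BMP in ESCs. In 2i/LIF, Id1 stood at 126.3 and 176 in control and at 418.2 and 386.1 in Dax1KO libraries. The Dax1KO libraries were thus both above the control libraries, by 2.66-fold (log2 fold change 1.41, SE 0.19, adjusted P = 0.0133). In LIF/serum Id1 stood at 2947 and 3288 in control and at 1600 and 1897 in Dax1KO libraries. Here both Dax1KO libraries were below both controls, 1.78-fold lower (log2 fold change -0.83, SE 0.17, adjusted P = 0.0192). The 2 effects differed by -2.25 on the log2 scale (LIF/serum minus 2i/LIF, SE 0.26, adjusted P = 0.00942). With 1 library left out, the rise in 2i/LIF missed the threshold without control replicate 1 (1.19, adjusted P = 0.0642), Dax1KO replicate 1 (1.35, adjusted P = 0.0985) or Dax1KO replicate 2 (1.47, adjusted P = 0.0844), and the difference missed it without 2i/LIF Dax1KO replicate 1 (-2.18, adjusted P = 0.0599) or 2 (-2.30, adjusted P = 0.0548). The fall in LIF/serum missed it without control replicate 2 (-0.76, adjusted P = 0.0811), Dax1KO replicate 1 (-0.71, adjusted P = 0.108) or Dax1KO replicate 2 (-0.96, adjusted P = 0.0713).

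Id2 (ENSMUSG00000020644.9, chr12:25093799-25097140, minus strand) encodes an Id protein known as an inhibitor of lineage commitment in many tissues. In 2i/LIF the control libraries held 306.8 and 227.1 and the Dax1KO libraries 266.5 and 324.5, so the groups overlapped (log2 fold change 0.15, SE 0.30, adjusted P = 0.876). In LIF/serum Id2 stood at 1128 and 1112 in control and at 285.1 and 537.2 in Dax1KO libraries. Both Dax1KO libraries lay below both controls, and they lay much further from each other than the controls did. Id2 was called 2.73-fold lower (log2 fold change -1.45, SE 0.30, adjusted P = 0.0183). The interaction for Id2 did not pass (-1.59, SE 0.42, adjusted P = 0.0928). The call in LIF/serum was lost without control replicate 1 (-1.44, adjusted P = 0.0594), control replicate 2 (-1.47, adjusted P = 0.0601) or Dax1KO replicate 1 (-1.06, adjusted P = 0.0566).

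Id3 (ENSMUSG00000007872.3, chr4:136143497-136145755, plus strand) is, with Id1, a direct BMP target in ESCs. Its 2i/LIF levels were 473.3 and 321.1 in control and 703.2 and 530.7 in Dax1KO libraries. Both Dax1KO libraries were higher, the 2 libraries of each group lay well apart, and the test did not pass (log2 fold change 0.64, SE 0.22, adjusted P = 0.185). In LIF/serum the levels were 710.3 and 746.6 in control and 664.9 and 595.7 in Dax1KO libraries (log2 fold change -0.21, SE 0.22, adjusted P = 0.57). The signs of the Id3 estimates were those of Id1 in both media, and the interaction did not pass (-0.84, SE 0.31, adjusted P = 0.197).

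Id4 (ENSMUSG00000021379.2, chr13:48261228-48266026, plus strand) encodes the member of the family best known from the nervous system. In 2i/LIF it was at 394.1 and 348.1 in control and at 222.7 and 242.4 in Dax1KO libraries, groups that did not overlap but did not pass the test (log2 fold change -0.67, SE 0.27, adjusted P = 0.238). In LIF/serum it was at 165.4 and 158.9 in control and at 160.7 and 90.68 in Dax1KO libraries, where the groups overlapped (log2 fold change -0.37, SE 0.28, adjusted P = 0.413). Id4 shares 171 exonic bases with Gm49291, a gene with 0 to 22 counts a library, and 82 with A330033J07Rik, with 0 to 7.

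Because the Id proteins act on the same partners, their make-up was compared as shares of the summed Id level per kilobase of exon. Id1 took 18.11% and 29.49% of the Id level in the 2i/LIF control libraries and stood at 39.17% and 40.33% with Dax1KO. Its share in LIF/serum was 73.79% and 75.61% in control and 72.24% and 73.94% in Dax1KO libraries. Id1 was thus the chief Id transcript in every LIF/serum library. In the 2i/LIF control libraries Id3 held the largest share, 43.94% and 34.84%. Id3 and Id1 held similar shares in Dax1KO cells in 2i/LIF, Id3 at 42.66% and 35.91%. Id4 made up 17.02% and 17.57% of the Id level in 2i/LIF control and 1.25% and 1.1% in LIF/serum control libraries. The shares are descriptions of levels already tested and were not tested themselves.

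**Figure D2:**
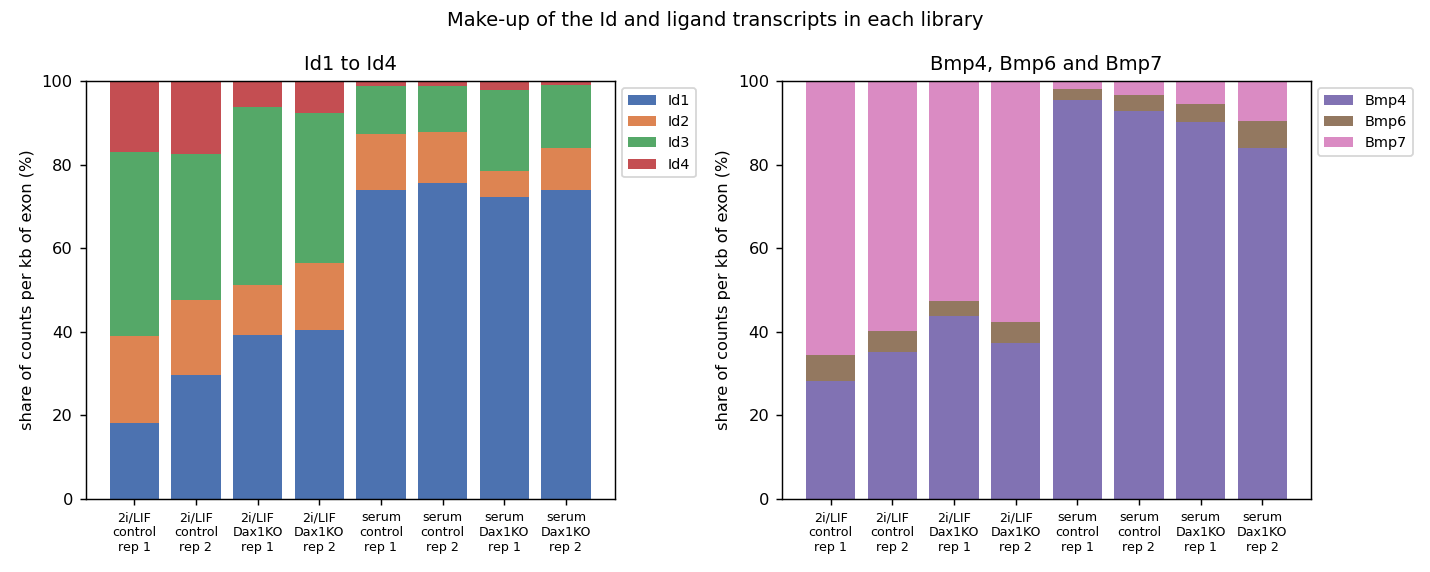
Shares (percent) of the summed normalized count per kilobase of exon, for the 4 Id genes and for the 3 BMP ligand genes, in each of the 8 libraries. Id1 made up 72.24% to 75.61% of the Id level in LIF/serum and 18.11% to 40.33% in 2i/LIF, while Bmp7 gave way to Bmp4 as the chief ligand transcript from 2i/LIF to LIF/serum.

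The inhibitors of the pathway were not called in either medium on loss of Dax1. Smad7 (ENSMUSG00000025880.11, chr18:75367529-75395935, plus strand), which blocks receptor-activated Smads and recruits ubiquitin ligases to receptors, was at 1173 and 1228 in control and at 1605 and 1590 in Dax1KO libraries in 2i/LIF. These groups were well separated, yet the test across genes did not pass (log2 fold change 0.41, SE 0.17, adjusted P = 0.268). In LIF/serum Smad7 was at 2236 and 2002 in control and at 3307 and 2291 in Dax1KO libraries with the Dax1KO libraries far apart (log2 fold change 0.40, SE 0.17, adjusted P = 0.162). The estimates in the 2 media differed by -0.01 (SE 0.25, adjusted P = 1).

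Smad6 (ENSMUSG00000036867.7, chr9:63953076-64022059, minus strand), the inhibitory Smad that acts mainly on BMP receptors, was at 193.5 and 141 in control and 139.1 and 143.7 in Dax1KO libraries in 2i/LIF (log2 fold change -0.24, SE 0.23, adjusted P = 0.676). In LIF/serum it was at 166.5 and 181.3 in control and 162.6 and 186.2 in Dax1KO libraries (log2 fold change 0.0044, SE 0.23, adjusted P = 1). The groups overlapped in both media. Bambi (ENSMUSG00000024232.1, chr18:3507923-3516404, plus strand), a pseudoreceptor without a kinase domain, was at 550.5 and 596.1 in control and 431.9 and 450.6 in Dax1KO libraries in 2i/LIF (log2 fold change -0.38, SE 0.19, adjusted P = 0.354). In LIF/serum Bambi was at 381.7 and 491.7 in control and at 289.9 and 357.8 in Dax1KO libraries (log2 fold change -0.43, SE 0.19, adjusted P = 0.169). Both Dax1KO libraries were below both controls in each medium, and neither difference passed the test.

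Of the ligands, Bmp6 and Bmp7 rose on loss of Dax1 in LIF/serum. Bmp7 (ENSMUSG00000008999.7, chr2:172868012-172940321, minus strand), a ligand of wide expression in the embryo, was at 1052 and 876.2 in control and 691.5 and 821 in Dax1KO libraries in 2i/LIF (log2 fold change -0.35, SE 0.28, adjusted P = 0.589). In LIF/serum it was at 72.09 and 130.1 in control and at 313.8 and 436.8 in Dax1KO libraries. Every Dax1KO library there was above both controls, by 3.71-fold (log2 fold change 1.89, SE 0.30, adjusted P = 0.00798). The effects in the 2 media differed by 2.24 on the log2 scale (SE 0.41, adjusted P = 0.0353). The call in LIF/serum was lost without Dax1KO replicate 2 (1.64, adjusted P = 0.0515), and the difference was lost without any 1 of the libraries other than LIF/serum control replicate 2 (1.88 to 2.46, adjusted P 0.0579 to 0.143).

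Bmp6 (ENSMUSG00000039004.6, chr13:38345107-38500302, plus strand), a ligand close to Bmp7 in sequence, was at 96.26 and 69.02 in control and 44.74 and 68.42 in Dax1KO libraries in 2i/LIF (log2 fold change -0.55, SE 0.32, adjusted P = 0.438). In LIF/serum it was at 97.54 and 138.7 in control and at 251.6 and 289.6 in Dax1KO libraries. The Dax1KO libraries were both above the controls, by 2.29-fold (log2 fold change 1.195, SE 0.31, adjusted P = 0.0379). The interaction did not pass (1.74, SE 0.44, adjusted P = 0.0851). The call was lost when any 1 of the 4 LIF/serum libraries was left out (0.96 to 1.46, adjusted P 0.0611 to 0.163), and without 2i/LIF Dax1KO replicate 1 (adjusted P = 0.0508) or 2 (adjusted P = 0.0509). Bmp6 shares 224 exonic bases, 5.7% of its exons, with Txndc5 on the opposite strand. Txndc5 was counted 2765 and 3316 times in 2i/LIF control, 6638 and 7436 times in 2i/LIF Dax1KO, 2125 and 2052 times in LIF/serum control and 3256 and 2891 times in LIF/serum Dax1KO libraries. Whether the counting used strand is not given in the sources used here, and the part of Txndc5 reads in the Bmp6 counts was not tested.

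Bmp4 (ENSMUSG00000021835.14, chr14:46383520-46390669, minus strand), the ligand most used to keep ESCs with LIF, was not called on loss of Dax1 in either medium. It was at 252.7 and 288.1 in control and 321.9 and 296.2 in Dax1KO libraries in 2i/LIF (log2 fold change 0.19, SE 0.17, adjusted P = 0.651). In LIF/serum it was at 2008 and 1955 in control and at 2909 and 2165 in Dax1KO libraries, 1 of which stood well above the rest (log2 fold change 0.36, SE 0.16, adjusted P = 0.185). Bmp4 shares 89 exonic bases with Gm15217, which had 0 to 22 counts a library.

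**Figure D3:**
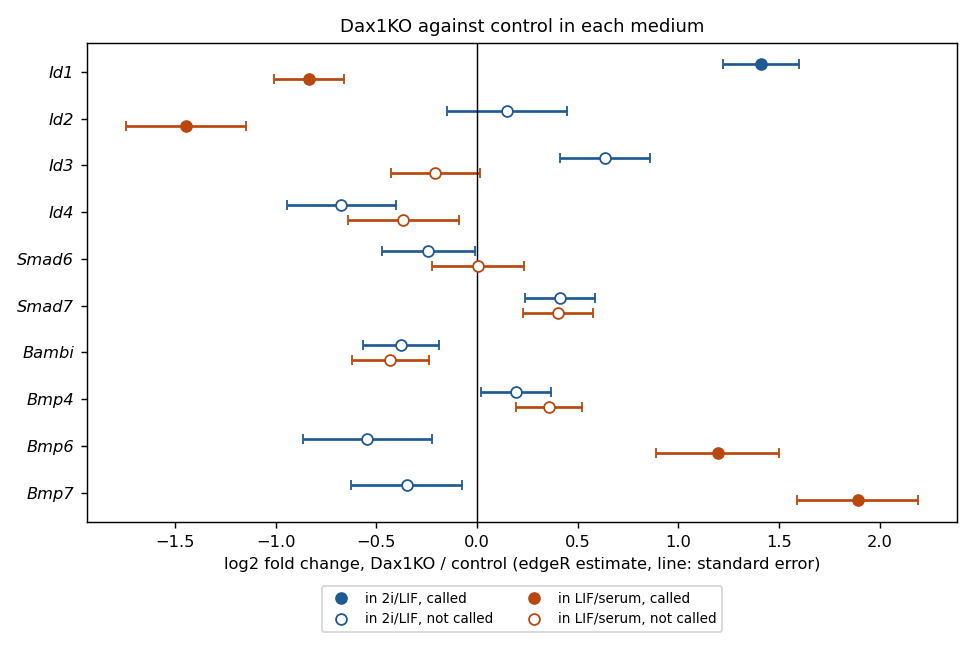
Log2 fold change of Dax1KO against control for each of the 10 genes in 2i/LIF and in LIF/serum (horizontal axis; points are edgeR estimates, lines 1 standard error, filled points called). Id1 was called in both media with opposite signs, 1.41 and -0.83, and Id2, Bmp6 and Bmp7 in LIF/serum.

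Markers of other cell types moved along with these LIF/serum differences. Of 8 primitive endoderm markers 6 were called higher in Dax1KO cells in LIF/serum, Gata4, Gata6, Sox17, Pdgfra, Dab2 and Col4a1, and the summed level of the 8 went from 15320 to 27920 in control to 51600 to 67380 in Dax1KO libraries. In 2i/LIF 1 of the 8 was called, Dab2, with sums of 8838 to 10280 and of 10040 to 11950. Of 5 trophectoderm markers Hand1 and Eomes were called higher in LIF/serum (sums 530.1 to 533.3 in control and 1131 to 1197 in Dax1KO libraries), none in 2i/LIF (861.3 to 952.2 and 1318 to 1355), where Cdx2 was at 0 in every library. None of 5 mesoderm markers was called (sums 93.86 to 143.1 and 87.75 to 148.3 in LIF/serum; 192 to 324.9 and 124.5 to 158.3 in 2i/LIF). Of 6 fibroblast markers, 4 of them tested, Thy1 and Col1a1 were called higher in LIF/serum (sums 458 to 486.4 and 1434 to 1498). Col3a1, Dcn and Postn were at 0 in the Dax1KO libraries there, and Col3a1 and Postn in the controls too. Thy1 held most of these sums (mean 411 in control and 1269 in Dax1KO libraries). Thy1 was called lower in 2i/LIF (sums 1858 to 2341 and 1235 to 1279). The part of these cell types in the Id1, Id2, Bmp6 and Bmp7 values was not tested. In LIF/serum Dax1KO cells the means of Id1 (1748), Id2 (411.2) and Bmp7 (375.3) lay between the control means of the 2 media. That of Bmp6 (270.6) lay above both control means. The part of the move from 2i/LIF, or of cell death, in these values was not tested.

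More of the 10 genes were called between the media than on loss of Dax1. In control cells 7 of the 10 genes were called between 2i/LIF and LIF/serum, 2 higher and 5 lower in 2i/LIF, against 36.8% of all genes (20.3% higher and 16.5% lower). In Dax1KO cells 6 were called, 2 higher and 4 lower, against 28.9% (15.2% higher and 13.7% lower). These comparisons use the same libraries as those above, and the interaction values already given are also the differences between the 2 media effects.

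Id1 was 20.6-fold lower in 2i/LIF than in LIF/serum in control cells (151.2 ± 35.1 against 3118 ± 241; log2 fold change -4.36, SE 0.20, adjusted P = 1.61e-05). In Dax1KO cells it was 4.35-fold lower (402.2 ± 22.7 against 1748 ± 211; log2 fold change -2.12, SE 0.18, adjusted P = 0.000165). The Id1 gap between media was therefore narrower without Dax1, by the interaction given above. Id2 was 4.2-fold lower in 2i/LIF in control cells (log2 fold change -2.07, SE 0.30, adjusted P = 0.00143) and was not called in Dax1KO cells (-0.48, SE 0.30, adjusted P = 0.274). Id3 was 1.83-fold lower in 2i/LIF in control cells (-0.87, SE 0.22, adjusted P = 0.0173) and showed -0.03 (SE 0.22, adjusted P = 0.937) in Dax1KO cells. Id4 went the other way, 2.29-fold higher in 2i/LIF in control (1.19, SE 0.27, adjusted P = 0.0108) and 1.85-fold higher in Dax1KO cells (0.89, SE 0.27, adjusted P = 0.0436). The Id3 call was lost without 2i/LIF control replicate 2 (-0.67, adjusted P = 0.0826) or LIF/serum control replicate 2 (-0.87, adjusted P = 0.0552), and the Id4 call in control cells without 2i/LIF control replicate 1 (1.11, adjusted P = 0.0529) or LIF/serum control replicate 2 (1.14, adjusted P = 0.0561). The Id4 call in Dax1KO cells was lost without any 1 of the libraries other than LIF/serum Dax1KO replicate 1 (adjusted P 0.058 to 0.174, the value being 0.53 without LIF/serum Dax1KO replicate 2 and 1.36 without replicate 1), with no filter on low counts (adjusted P = 0.085) and in a fit of the Dax1KO libraries alone (adjusted P = 0.0861).

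Bmp4 and Bmp7 traded places between the media. Bmp4 was 7.33-fold lower in 2i/LIF in control cells (270.4 ± 25 against 1982 ± 37.5; log2 fold change -2.87, SE 0.18, adjusted P = 3.5e-05) and 8.21-fold lower in Dax1KO cells (309 ± 18.2 against 2537 ± 527; -3.04, SE 0.18, adjusted P = 3.77e-05). Bmp7 was 9.53-fold higher in 2i/LIF in control cells (964 ± 124 against 101.1 ± 41; 3.25, SE 0.31, adjusted P = 0.000192) and 2.02-fold higher in Dax1KO cells (756.3 ± 91.6 against 375.3 ± 87; 1.01, SE 0.28, adjusted P = 0.0294). Per kilobase of exon, Bmp7 made up 65.63% and 59.92% of the 3 ligands' level in the 2i/LIF control libraries and 1.92% and 3.45% in LIF/serum control libraries. Bmp4 held 95.41% and 92.76% there, and 90.08% and 84.03% in LIF/serum Dax1KO libraries. Bmp6 was 4.77-fold lower in 2i/LIF in Dax1KO cells (-2.26, SE 0.32, adjusted P = 0.00166) and was not called in control cells (-0.51, SE 0.31, adjusted P = 0.233). The Bmp7 call in Dax1KO cells was lost when any 1 of the 4 Dax1KO libraries was left out: without 2i/LIF replicate 1 (1.13, adjusted P = 0.0737) or 2 (0.88, adjusted P = 0.152), or LIF/serum replicate 1 (0.79, adjusted P = 0.163) or 2 (1.27, adjusted P = 0.0506). It also missed the threshold with no filter on low counts (adjusted P = 0.0746).

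Smad7 was lower in 2i/LIF in both genotypes, 1.77-fold in control (-0.82, SE 0.18, adjusted P = 0.00811) and 1.75-fold in Dax1KO cells (-0.81, SE 0.17, adjusted P = 0.0109). The first call was lost without 2i/LIF control replicate 1 (-0.78, adjusted P = 0.0505) and the second without 2i/LIF Dax1KO replicate 1 (adjusted P = 0.0666) or 2 (adjusted P = 0.0759) or LIF/serum Dax1KO replicate 1 (-0.52, adjusted P = 0.0596). Smad6 (-0.06, SE 0.23, adjusted P = 0.874 in control; -0.30, SE 0.23, adjusted P = 0.373 in Dax1KO cells) and Bambi (0.39, SE 0.19, adjusted P = 0.141; 0.45, SE 0.19, adjusted P = 0.119) were not called. In the order of medium effects in control cells, Id1 and Bmp4 formed the serum-high end and Bmp7 and Id4 the 2i-high end. Primitive endoderm markers also differed between the media, 7 of 8 called lower in 2i/LIF in either genotype. Of the 8 pluripotency markers 1 was called higher and 3 lower in 2i/LIF in control cells, and 1 higher and 5 lower in Dax1KO cells. Of 4 fibroblast markers tested 3 were called higher and 1 lower in control, and 1 higher and 1 lower in Dax1KO cells. Of 5 trophectoderm markers 1 was called higher and 1 lower in control, and 1 higher and 2 lower in Dax1KO cells, and of 5 mesoderm markers none in control and 1, lower, in Dax1KO cells. The summed levels are those given above, and the part of these cell types in the values between media was not tested.

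**Figure D4:**
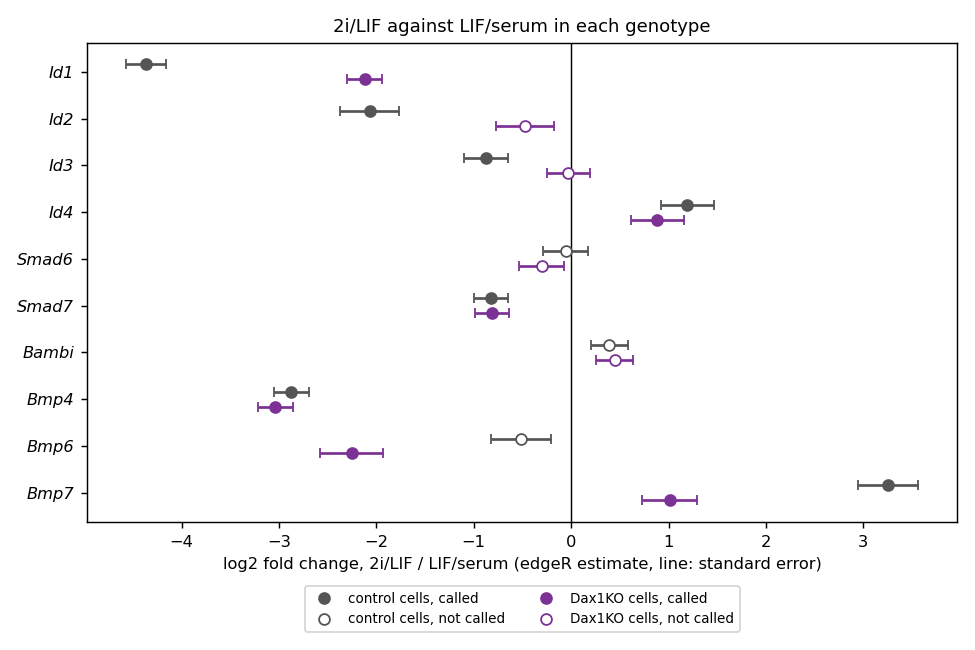
Log2 fold change of 2i/LIF against LIF/serum for each of the 10 genes in control and in Dax1KO cells (horizontal axis; points are edgeR estimates, lines 1 standard error, filled points called). Id1 and Bmp4 lie on the serum-high side and Bmp7 and Id4 on the 2i-high side in both genotypes, with the Id1 and Bmp7 points closer to 0 in Dax1KO cells.

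The order of the levels, as normalized counts per kilobase of exon, also turned over with the medium. In 2i/LIF control cells it ran Smad7 (265.6), Bmp7 (239.9), Id3 (221.8), Id1 (130.3), Bmp4 (120.3), Bambi (113), Id2 (109.5), Id4 (96.41), Smad6 (52.19) and Bmp6 (21.19). Neighbours overlapped between libraries except Id3 and Id1, Id4 and Smad6, and Smad6 and Bmp6. In 2i/LIF Dax1KO cells Smad7 (353.4), Id1 (346.7) and Id3 (344.5) led, each overlapping the next, followed by Bmp7 (188.2). In LIF/serum control cells Id1 (2688) led by a wide margin over Bmp4 (881.5), then Smad7 (468.7) and Id2 (459.5), which overlapped, and Id3 (406.7); Bmp6 (30.28) and Bmp7 (25.16) were last and overlapped. In LIF/serum Dax1KO cells Id1 (1507), Bmp4 (1129), Smad7 (619.2), Id3 (351.9) and Id2 (168.6) kept separate levels, and Bmp7 (93.38) stood above Bmp6 (69.38) and Bambi (63.83), which overlapped.

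The rest of the pathway was described from lists of 65 other genes, of which 54 were tested. In 2i/LIF 1 of the 54 (1.85%, against 3.16% of all tested genes) was called on loss of Dax1, the transcription factor gene Gata2, at 425.2 and 335.1 in control and 1249 and 1522 in Dax1KO libraries (log2 fold change 1.87, SE 0.27, adjusted P = 0.0166). Its estimate in LIF/serum was 0.01 (SE 0.28, adjusted P = 0.989), and the effects differed between the media (-1.85, SE 0.39, adjusted P = 0.0482). Gata2 was thus the other pathway gene that, with Id1, rose in 2i/LIF, and it lies on chromosome 6, whose genes had the raised median given above. Without any 1 of the 2i/LIF libraries the rise of Gata2 missed the threshold (with no filter on low counts too; 1.72 to 2.05, adjusted P 0.0608 to 0.109), and the difference did so without any 1 of the 8 libraries (-2.16 to -1.51, adjusted P 0.052 to 0.164). In LIF/serum 4 of the 54 (7.41%, against 14.7% of all tested genes) were called, a share below the background. Among 10 receptors and coreceptors tested, Acvrl1, a type I receptor gene, rose (log2 fold change 1.41, SE 0.39, adjusted P = 0.0471). Among 13 secreted antagonists tested, Fstl3, an activin- and BMP-binding protein gene, rose (1.78, SE 0.42, adjusted P = 0.0294), as did Twsg1, whose product binds BMPs and chordin (0.56, SE 0.15, adjusted P = 0.0413). Among 7 intracellular attenuators, the Smad corepressor gene Skil fell (-0.86, SE 0.21, adjusted P = 0.0337). None of 9 other ligand genes, 8 other BMP-responsive genes, 3 E-protein genes or the 4 Smads that carry the signal was called there. All 4 calls in LIF/serum were close to the threshold: they missed it with no filter on low counts and without either 2i/LIF Dax1KO library, and all but that of Fstl3 in a fit of the LIF/serum libraries alone. Leaving out any LIF/serum library cost the call of Acvrl1 (1.07 to 1.69, adjusted P 0.0631 to 0.226 over all settings that lost it), each but Dax1KO replicate 1 that of Fstl3 (1.19 to 1.98, adjusted P 0.0582 to 0.161), each but control replicate 1 that of Twsg1 (0.39 to 0.69, adjusted P 0.0539 to 0.208, the replicate block and either 2i/LIF control library included), and each but control replicate 2 that of Skil (-1.15 to -0.62, adjusted P 0.0515 to 0.151, either 2i/LIF control library included).

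The signal-carrying Smads were Smad1, Smad5, Smad9 and Smad4. Smad1 was estimated at -0.18 (SE 0.18, adjusted P = 0.693) in 2i/LIF and 0.22 (SE 0.18, adjusted P = 0.441) in LIF/serum on loss of Dax1. Smad5 stood at 0.21 (SE 0.17, adjusted P = 0.598) and 0.24 (SE 0.17, adjusted P = 0.384). Smad9, the least abundant, stood at -0.25 (SE 0.33, adjusted P = 0.777) and 1.01 (SE 0.38, adjusted P = 0.115), with 15 and 26 counts in the LIF/serum control libraries. Smad4, the shared partner, stood at -0.28 (SE 0.11, adjusted P = 0.238) and 0.23 (SE 0.11, adjusted P = 0.2). None passed. Dusp9, a BMP-induced ERK phosphatase gene in ESCs, was estimated at 0.71 (SE 0.24, adjusted P = 0.164) and 0.24 (SE 0.24, adjusted P = 0.532). Endoglin, the coreceptor gene Eng, differed between the media in its response to loss of Dax1 (0.92, SE 0.19, adjusted P = 0.0488), with estimates of -0.57 (SE 0.14, adjusted P = 0.0693) in 2i/LIF and 0.35 (SE 0.14, adjusted P = 0.125) in LIF/serum that each missed the threshold. The difference for Eng missed it without any 1 of the 8 libraries, with RLE factors and with no filter on low counts (0.79 to 1.05, adjusted P 0.0536 to 0.177).

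**Figure D5:**
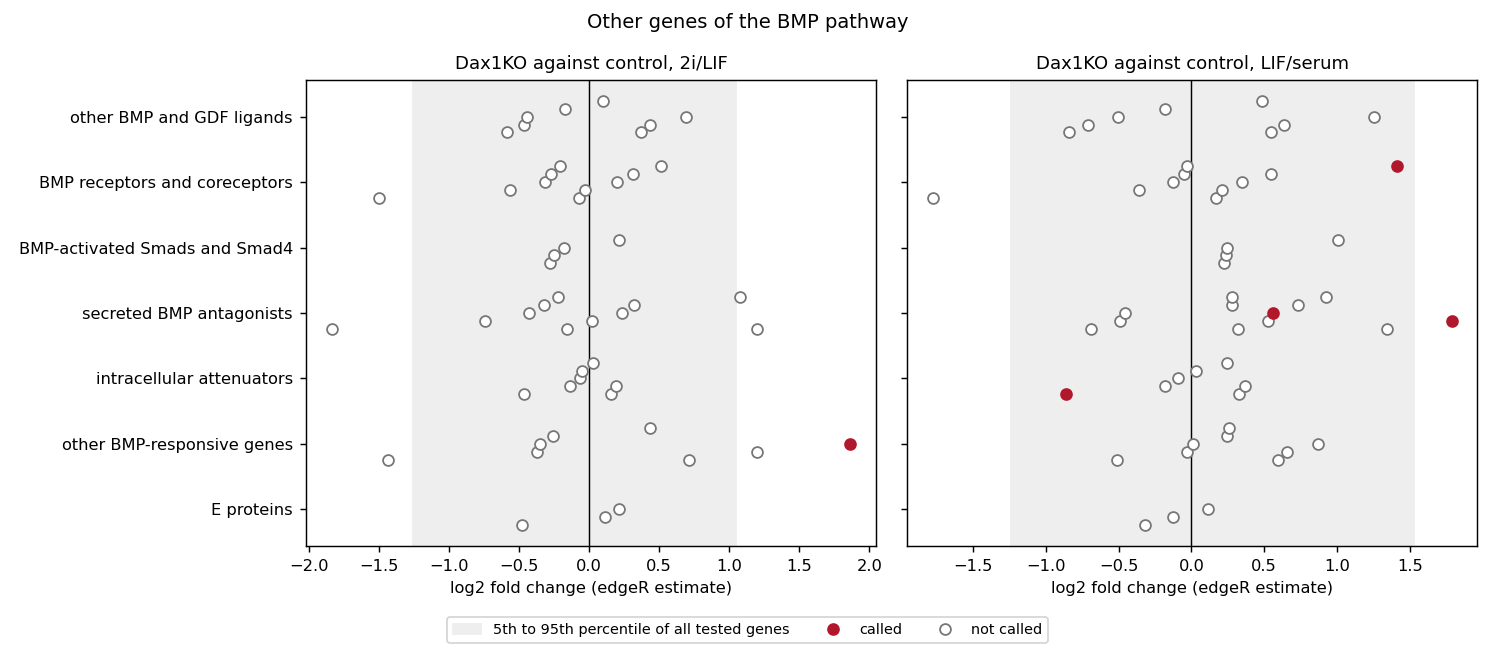
Log2 fold change of Dax1KO against control (horizontal axes, edgeR estimates) for other tested genes of the BMP pathway by list, in 2i/LIF (51 genes) and LIF/serum (52 genes), leaving out genes with at most 3 counts in every library of a compared group. Filled points were called, 1 in 2i/LIF (Gata2) and 4 in LIF/serum (Acvrl1, Fstl3, Twsg1 and Skil); the grey band spans the 5th to 95th percentile of all tested genes.

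Between media in control cells 21 of the 54 other pathway genes were called (38.9%, against 36.8% of all tested genes), 17 higher and 4 lower in 2i/LIF, a share near the background. Of the 54, 3 of the 4 signal-carrying Smads were called higher in 2i/LIF, Smad9 (2.89, SE 0.38, adjusted P = 0.000786), Smad1 (0.93, SE 0.18, adjusted P = 0.00491) and Smad4 (0.45, SE 0.11, adjusted P = 0.0156), while Smad5 was not (0.42, SE 0.17, adjusted P = 0.0926). Of the 10 receptor and coreceptor genes 3 were called higher in 2i/LIF, the coreceptor genes Rgma (2.54) and Rgmb (0.89) and the type I receptor gene Acvr1 (1.77), and Bmpr1b, another type I receptor gene, was called lower (-2.67). Of the 13 antagonists Nbl1 (1.42), Twsg1 (1.08) and Chrd (0.90) were called higher and Bmper (-2.26) lower. Of the 7 attenuators Nedd4l (1.00) and Tob1 (0.53) were called higher and Skil (-1.29) lower. Of the 8 responsive genes Msx1 (2.05), Hey1 (1.81) and Gata3 (1.80) led 4 called higher, the other being Gata2 (0.97). With 1 library left out, Msx1 ran from 1.53 to 2.39, Hey1 from 1.64 to 1.99 and Gata3 from 1.26 to 2.61. Dusp9 was called lower (-0.89, SE 0.24, adjusted P = 0.0202). Id1, Id2 and Id3 were lower in 2i/LIF and Id4 was higher, as given above. Of 3 genes of E proteins, which Id proteins bind, Tcf12 (0.96) and Tcf3 (0.72) were called higher there and Tcf4 (0.36) was not called. These calls held in every alternative for Acvr1, Rgma, Smad1, Smad9, Twsg1, Skil, Nedd4l, Msx1, Hey1, Tcf3 and Tcf12. Of the others, the call was lost without 2i/LIF control replicate 1 for Smad4, Chrd, Gata2, Gata3, Dusp9, Bmpr1b, Bmper and Tob1, without 2i/LIF control replicate 2 for Smad4, Gata2, Rgmb, Nbl1, Bmpr1b and Bmper, without LIF/serum control replicate 1 for Rgmb, Chrd, Nbl1, Dusp9, Bmpr1b, Bmper and Tob1, and without LIF/serum control replicate 2 for Smad4, Gata2, Chrd, Nbl1, Bmpr1b and Tob1. The adjusted P values in those fits and the other alternatives that lost a call ran from 0.0506 (Bmpr1b) to 0.321 (Bmper, whose value without LIF/serum control replicate 1 was -0.89). Tcf3 stood at 5178 ± 4.09 in 2i/LIF and 3136 ± 28 in LIF/serum control cells.

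In Dax1KO cells 17 of the 54 were called between media (31.5%, against 28.9% of all tested genes), 11 higher and 6 lower in 2i/LIF. Smad9 was the signal-carrying Smad called higher in 2i/LIF (1.63, SE 0.35, adjusted P = 0.0104); Smad1 was at 0.53 (SE 0.18, adjusted P = 0.0564), Smad5 at 0.39 (SE 0.17, adjusted P = 0.13) and Smad4 at -0.07 (SE 0.11, adjusted P = 0.706). Rgma (3.10) and Acvr1 (1.02) were called higher and Eng (-0.72) lower. Of the antagonists Twsg1 (0.84) was called higher and Crim1 (-1.10) and Grem1 lower, Grem1 being at 0 in 2i/LIF and at least 3.98-fold higher in LIF/serum. Tob1 (0.90) and Nedd4l (0.70) were called higher and Ski (-0.49) lower. Gata2 (2.83) and Hey1 (0.90) were called higher and Msx2 (-1.97) lower, and Dusp9 was at -0.42 (SE 0.24, adjusted P = 0.222). Tcf3 (0.72) and Tcf12 (0.61) were called higher. Of the ligand genes, Gdf5 was called lower in 2i/LIF, where it was at 0 (at least 3.96-fold), and Gdf7 higher, being at 0 in LIF/serum (at least 5.05-fold). Rgma, Acvr1, Twsg1, Crim1, Tob1, Msx2, Gata2 and Tcf3 kept these calls in every alternative. Leaving out 2i/LIF Dax1KO replicate 1 cost those of Smad9, Ski, Hey1, Tcf12, Gdf5, Gdf7 and Grem1, 2i/LIF Dax1KO replicate 2 those of Eng, Ski, Nedd4l, Hey1, Tcf12, Gdf5, Gdf7 and Grem1, LIF/serum Dax1KO replicate 1 those of Smad9, Ski, Nedd4l, Hey1, Tcf12, Gdf5, Gdf7 and Grem1, and LIF/serum Dax1KO replicate 2 those of Ski, Gdf5, Gdf7 and Grem1 (adjusted P from 0.0523 for Gdf5 to 0.196 for Ski over all settings that lost a call). Gdf5, Gdf7 and Grem1 had at most 16 counts in any library.

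Genes with the most similar pattern over the 8 libraries were sought for Id1, Id3 and Bmp4 by Pearson's r of log2 CPM (counts scaled to a common library total), among 10383 genes with a mean of at least 3. For Id1 these included Porcn (r = 0.996) and Gm38316 (0.994). For Id3 they were Lrrc34 (0.961), Kbtbd8 (0.956) and Gtpbp4 (0.956), and for Bmp4 Dnajc9 (0.998), Kank3 (0.995) and Nphs1 (0.995). The 8 libraries fall into 4 groups of 2 media, so these coefficients mostly rest on the spread between groups.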

How the data were processed

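mRNA-seq of 8 libraries, 2 in each of 4 groups taken from the sample labels, was used. The authors deposited read counts per gene and library, aligned with HISAT2 2.0.4 to mm10 per the submitters' processing notes; the counter, annotation and strand setting are not given in the sources used here. Of 52550 gene IDs 52403 were found in GENCODE M21, which gave names, positions and exon lengths; 49035 had the same ID version. Counts were filtered (filterByExpr), scaled by TMM (factors 0.960 to 1.04) and fitted with edgeR 4.0.16 (R 4.3.3; quasi-likelihood, 1 mean per group, all 8 libraries, Benjamini-Hochberg adjustment). Two-sided tests were used. Each SE is the absolute log2 fold change divided by the square root of the test's F statistic. The biological coefficient of variation was 20.9%. DESeq2 1.42.0, RLE factors, other count filters, separate fits, a replicate block and leaving out each library were tried as alternatives; for genes other than the 10 members this was decided after seeing the data. No other column was used. Sequences came from RefSeq, GRCm38.p6.

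In data simulated on these libraries, 38% of genes with a planted log2 change of 1 and 90% with 2 were recovered in 2i/LIF. In LIF/serum 41% and 89% were recovered (20070 and 20081 genes in the 2 simulations). False calls were 8 of 136 and 10 of 140. The planted genes, 100 of each size, were drawn above a minimum level and no other gene was changed. Recovery may differ where many genes change, as in these data. Transcripts of the 10 genes were compared with all others by blastn 2.17.0 (identity of at least 95%), and the longest match was 6.2% of a transcript. Replicates differed beyond counting noise, and counting floors cover counting error only. Numbers of replicates 1 and 2 were not taken as pairs.

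The members and lists were chosen with earlier results of these data known. Named genes are the 10 members, Dax1, Dusp9, Smad1, Smad5, Smad9 and Smad4 in each comparison, and from each other pathway list up to 3 called genes with the largest rise and up to 3 with the largest fall; for Id1, Id3 and Bmp4, the 3 genes with the closest pattern, 1 of which is not reported here. Marker genes are named as listed.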

Additional observations from a re-analysis of the deposited data

Results flagged for a closer look

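The effect of loss of Dax1 on Id1 differed between the media by a test of the difference itself, -2.25 on the log2 scale (LIF/serum minus 2i/LIF, SE 0.26, adjusted P = 0.00942, edgeR quasi-likelihood test), with both Dax1KO libraries above both controls in 2i/LIF and below both in LIF/serum. Bmp7 differed in the other direction, by 2.24 (SE 0.41, adjusted P = 0.0353), both Dax1KO libraries being below both controls in 2i/LIF and above both in LIF/serum. The call for Id1 was lost in 2 of 13 alternatives, without 2i/LIF Dax1KO replicate 1 (adjusted P = 0.0599) or 2 (adjusted P = 0.0548). The call for Bmp7 was lost in 8 of 13, with no filter on low counts and without any 1 of the libraries other than LIF/serum control replicate 2 (adjusted P up to 0.143).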

How the results depend on the processing

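Among the 10 genes, RLE factors, a minimum of 10 counts in every library and the replicate block left the number called as in the main analysis in every comparison, and separate fits did so except between media in Dax1KO cells (5 against 6); no separate fit exists for the difference between media. Without a filter on low counts 0 were called in 2i/LIF, 1 in LIF/serum and 1 for the difference, and 121, 1842 and 119 of all genes against 656, 3041 and 596. DESeq2 called 4 for the difference, adding Id2 (-1.59, adjusted P = 0.00484) and Bmp6 (1.75, adjusted P = 0.0347), and 1281 of all genes in 2i/LIF and 1292 for the difference. The separate fit in LIF/serum called 1743 of all genes. With 1 library left out, the lone library of its group being assumed to vary like the others, 0 to 1 genes were called in 2i/LIF (38 to 673 of all genes), 1 to 4 in LIF/serum (728 to 2496), 0 to 2 for the difference (36 to 344), 5 to 7 between media in control (5057 to 7120) and 3 to 5 in Dax1KO cells (2986 to 6286). Genes that were not called changed sign. Smad6 in LIF/serum was -0.005 with RLE factors, -0.015 with at least 10 counts, -0.012 in the separate fit and -0.094 to 0.101 with 1 library left out. Smad7 for the difference was 0.005 with no filter and -0.296 to 0.233 with 1 library left out, and so ranged Bambi (-0.224 to 0.132), Id4 (-0.161 to 0.664) and Bmp4 (-0.063 to 0.364) for the difference, Id2 (-0.04 to 0.38) and Smad6 (-0.438 to 0.003) in 2i/LIF, Smad6 between media in control (-0.298 to 0.11) and Id2 (-0.862 to 0.052) and Id3 (-0.247 to 0.159) between media in Dax1KO cells. The cause was not tested. Of 49 calls of other pathway genes and Dax1 in the 5 comparisons, 27 were lost under at least 1 of the alternatives, chosen for these genes after seeing the data, and none changed sign. Same-numbered libraries of compared groups deviated together weakly at most (r = -0.002 to 0.108), with 2 pairs a comparison. Under the replicate block 1, 4, 2, 7 and 6 of the 10 genes were called in the 5 comparisons (Id1 in 2i/LIF 1.43, adjusted P = 0.0152). No call of the 10 changed under it.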
